A study of Homo sapiens with 6 samples.

Results

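In HEK293 cells that carried TDNC1, 146 genes had lower values on the arrays of TDNC1 replicates 1 and 2 than on every control array, while TDNC1 replicate 3 lay at or above the level of the controls or at most slightly below it. The 146 genes were chosen by their array values with a fixed rule, among 14884 named genes that were each read from their brightest row. The lowest control had to exceed the higher of TDNC1 replicates 1 and 2 by 0.4 or more on the log2 scale, here called the gap, and TDNC1 replicate 3 could be at most 0.2 below the lowest control. The mean of the 6 arrays had to be 5 or more, which 11091 genes met and which are called the measured genes below; the 146 genes are 1.32% of them. The same numbers were met by another 22 genes, of families such as HOX, heat shock, cathepsin, metallothionein and microRNA genes, which the rule leaves out. Because the rule reads all 6 arrays, the levels given here describe how the genes were chosen and test nothing.

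The cells were HEK293, an established line from human embryonic kidney, made with the Flp-In T-REx system, which sets a construct into a fixed genomic site under an inducible promoter. One group stably expressed TDNC1 and the other a random RNA as its control, each as a pool of stable clones; both were grown in high-glucose medium with serum, blasticidin and, after transfection, hygromycin. The labels say neither whether inducer was used nor what TDNC1 is. The RNA was read on Affymetrix Human Gene ST 2.0 chips, with 3 arrays for each group, and the values are log2 expression per transcript cluster.

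The labels call the arrays biological replicates without naming separate cultures, so their spread may be partly technical. Over all 53617 rows, TDNC1 replicates 1 and 2 differed from each other by a median of 0.134. TDNC1 replicate 3 differed by 0.188 and 0.177 from them and by 0.136 from control replicate 3, the array nearest to it. Control replicate 3 differed by 0.162 and 0.160 from the other controls, which differed by 0.136 from each other, so it too was nearer to TDNC1 replicate 3 than to its own group. The labels do not tell whether TDNC1 replicate 3 differs in its culture or in its labelling, which was not tested. The highest change of a measured gene from the control mean was 6.03, 6.17 and 5.97 in TDNC1 replicates 1, 2 and 3. That the low values of the set are absent from TDNC1 replicate 3 rests on that array alone. With it left out, 149 genes met the rest of the rule, the 146 among them. The 5 measured HEK293 markers (PAX2, LHX1, VIM, KRT8 and KRT18) lay above the median of every array on all 6 arrays, with a mean between 7.24 and 7.46 per array. Blood, endothelial and neuronal markers were below it (0 of 6 above on all arrays), as were 2 of 3 fibroblast markers, DCN and LUM. Of 4 epithelial markers, EPCAM and KRT19 lay above it, with EPCAM between 9.69 and 10.04. None of these markers is among the 146 genes. An array cannot tell fewer cells with a transcript from less of it per cell.

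The 146 genes have mixed functions. Several of those described below belong to the secretory pathway, in which proteins enter the endoplasmic reticulum, receive sugar chains built on the lipid carrier dolichol, and pass through the Golgi apparatus to the surface or to lysosomes, where they are broken down. Others act in mitochondria, in the assembly of ribosomes or in transcription. Of the 146, 71 were placed in none of the functional groups used below, which are not complete. Protein-coding genes made up 136 of the 146 (93.2%, against 87.8% of the measured genes), with 6 long noncoding RNAs and 4 transcribed pseudogenes.

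Across the set, TDNC1 replicates 1 and 2 were lower by a median of 0.64 on the log2 scale than the control mean, or 1.56-fold (from 1.37-fold to 2.60-fold). The median gap was 0.48, and 34 genes had a gap of 0.6 or more. The mean of both arrays was at least 1 log2 unit below the control mean in 14 genes. TDNC1 replicates 1 and 2 differed from each other by a median of 0.07, and the controls spanned a median range of 0.22. The gap was wider than the range of the controls in 143 of the 146 genes (97.9%, against 7.95% of the measured genes). The rule's bound of 0.4 on the gap favours this. TDNC1 replicate 3 had a median of 0.03 above the control mean, from -0.36 to 0.85. The rule set only its lower side. TDNC1 replicate 3 lay within the range of the controls in 86 genes (58.9%, against 50.7% of the measured genes). It was above the highest control in 33 (22.6%, against 25.4%) and below the lowest in 27 (18.5%, against 23.8%).

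**Figure D1:**
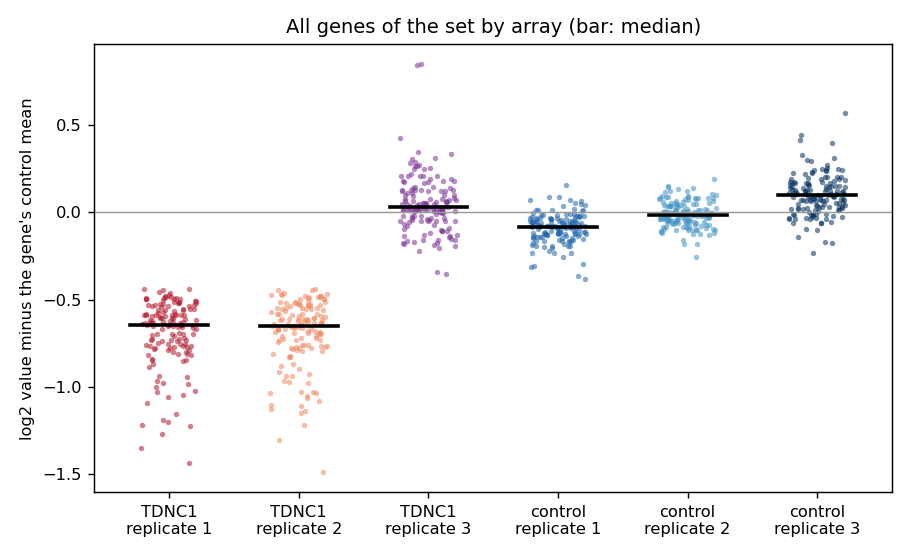
The log2 value of each of the 146 genes minus its own control mean (vertical axis) is plotted for each array (horizontal axis); points are genes and the bar is the median. The medians are -0.64 and -0.65 in TDNC1 replicates 1 and 2, 0.03 in TDNC1 replicate 3, and -0.08, -0.01 and 0.10 in the controls.

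In limma's fit over all 6 arrays, the median log2 change of the 146 genes was -0.42, against 0.01 over the measured genes, and -0.64 without TDNC1 replicate 3. With Benjamini-Hochberg adjustment over all rows, 0 of the 146 were called with all arrays, where 0.00187% of the rows were called in either direction and 0% as lower in TDNC1. At an unadjusted p under 0.05 it was 46 genes, beside 3.96% of all rows that were lower at that level. Without TDNC1 replicate 3, 0 of the 146 were called (smallest adjusted p = 0.0563 in limma), where 0.0429% of the rows were called and 0.00746% as lower. All 3 TDNC1 arrays were below all 3 controls in 27 of the 146, and in 6.58% of the measured genes, while TDNC1 replicates 1 and 2 were below all controls in 21.4% of the measured genes. Since the rule used this contrast, nothing is read from these counts.

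The widest gap, 1.21, was that of SH3BGRL3, a small protein with a thioredoxin-like fold. It stood at 6.37, 6.15 and 7.77 in TDNC1 replicates 1, 2 and 3 and at 7.59, 7.58 and 7.75 in the controls. TDNC1 replicates 1 and 2 were thus 2.60-fold below the control mean, and TDNC1 replicate 3 was level with the highest control. Its log2 change over all 6 arrays was -0.88 (SE 0.39). CDK2AP2, a relative of the CDK2-associated protein CDK2AP1, stood at 5.63, 5.86 and 7.01 in TDNC1 against 6.88, 7.07 and 7.01. Here TDNC1 replicate 3 lay in the middle of the controls, and the change over all arrays was -0.82 (SE 0.33). The membrane protein gene FAM174C stood at 7.13, 7.41 and 8.41 against 8.41, 8.70 and 8.58, a change of -0.91 (SE 0.31). TDNC1 replicate 3 matched the lowest control. CBX6, a chromodomain subunit of Polycomb repressive complex 1, stood at 7.74, 7.54 and 8.85 against 8.70, 8.84 and 8.74. A dimmer row of the same gene ran otherwise, at 6.36, 6.31 and 5.86 against 6.10, 6.35 and 6.08, so the low values belong to 1 of its 2 rows. CDIPT, the enzyme that makes phosphatidylinositol, stood at 9.47, 9.39 and 10.55 against 10.42, 10.47 and 10.61. It is a bright row, and its low arrays were 2.10-fold below the control mean. GRWD1, a WD-repeat protein of ribosome assembly, had 8.63, 8.70 and 9.85 against 9.61, 9.72 and 10.03, with TDNC1 replicate 3 inside the controls.

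The promoters of these 6 genes are shown because they have the widest gaps. Each runs from 250 bases before to 50 bases after the first start listed by RefSeq (GRCh38.p14). Capitals mark the GC box GGGCGG, the CCAAT box, the E-box CACGTG, the ETS motif CCGGAAG and the YY1 motif, on either strand. SH3BGRL3 is at chr1:26279836-26280135 (plus strand) and CDK2AP2 at chr11:67508113-67508412 (minus strand). FAM174C is at chr19:1275280-1275579 (plus strand) and CBX6 at chr22:38872167-38872466 (minus strand). CDIPT is at chr16:29863177-29863476 (minus strand) and GRWD1 at chr19:48445733-48446032 (plus strand).
SH3BGRL3: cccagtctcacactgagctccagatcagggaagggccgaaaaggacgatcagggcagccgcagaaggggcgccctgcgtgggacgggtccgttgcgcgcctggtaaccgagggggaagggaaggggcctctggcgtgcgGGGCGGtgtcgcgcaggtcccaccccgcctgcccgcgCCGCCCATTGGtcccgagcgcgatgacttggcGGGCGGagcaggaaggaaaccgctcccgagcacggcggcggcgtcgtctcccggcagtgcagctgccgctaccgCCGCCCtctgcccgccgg
CDK2AP2: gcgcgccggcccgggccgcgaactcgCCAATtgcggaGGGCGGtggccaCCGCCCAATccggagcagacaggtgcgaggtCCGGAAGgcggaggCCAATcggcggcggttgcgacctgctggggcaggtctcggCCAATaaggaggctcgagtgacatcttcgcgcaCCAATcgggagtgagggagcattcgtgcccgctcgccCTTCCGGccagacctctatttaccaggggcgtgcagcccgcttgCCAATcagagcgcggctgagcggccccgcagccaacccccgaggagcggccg
FAM174C: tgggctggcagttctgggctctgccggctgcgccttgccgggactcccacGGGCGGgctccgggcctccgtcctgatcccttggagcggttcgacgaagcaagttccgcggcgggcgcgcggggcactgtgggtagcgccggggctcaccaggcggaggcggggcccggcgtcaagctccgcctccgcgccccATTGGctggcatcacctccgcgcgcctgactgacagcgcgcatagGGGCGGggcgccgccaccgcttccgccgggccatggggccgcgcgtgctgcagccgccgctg
CBX6: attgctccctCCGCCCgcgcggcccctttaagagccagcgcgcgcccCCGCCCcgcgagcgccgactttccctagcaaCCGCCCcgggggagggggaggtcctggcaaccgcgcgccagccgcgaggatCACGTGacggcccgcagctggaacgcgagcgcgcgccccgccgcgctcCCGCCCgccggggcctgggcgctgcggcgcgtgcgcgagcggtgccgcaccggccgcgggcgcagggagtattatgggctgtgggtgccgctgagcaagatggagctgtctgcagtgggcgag
CDIPT: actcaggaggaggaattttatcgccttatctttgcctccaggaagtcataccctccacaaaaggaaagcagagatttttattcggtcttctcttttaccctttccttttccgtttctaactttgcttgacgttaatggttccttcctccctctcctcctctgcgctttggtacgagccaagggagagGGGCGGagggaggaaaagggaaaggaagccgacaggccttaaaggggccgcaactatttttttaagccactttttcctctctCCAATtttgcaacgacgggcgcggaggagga
GRWD1: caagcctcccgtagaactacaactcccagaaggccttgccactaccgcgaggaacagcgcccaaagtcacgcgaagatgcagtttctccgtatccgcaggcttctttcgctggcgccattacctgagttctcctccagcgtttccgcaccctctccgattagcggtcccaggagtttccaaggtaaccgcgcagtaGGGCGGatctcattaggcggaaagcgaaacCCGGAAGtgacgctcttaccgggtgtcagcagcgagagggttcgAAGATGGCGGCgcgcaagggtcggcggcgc

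The 6 promoters hold between 1 and 4 GC boxes each. Their GC content runs from 49.0% in CDIPT to 76.7% in CBX6, and their CpG dinucleotides from 13 to 47. CDK2AP2 holds 6 CCAAT boxes and 2 ETS motifs, CBX6 the only E-box of the 6, and GRWD1 1 ETS and 1 YY1 motif. No motif searched other than the GC box occurs in all 6.

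**Figure D2:**
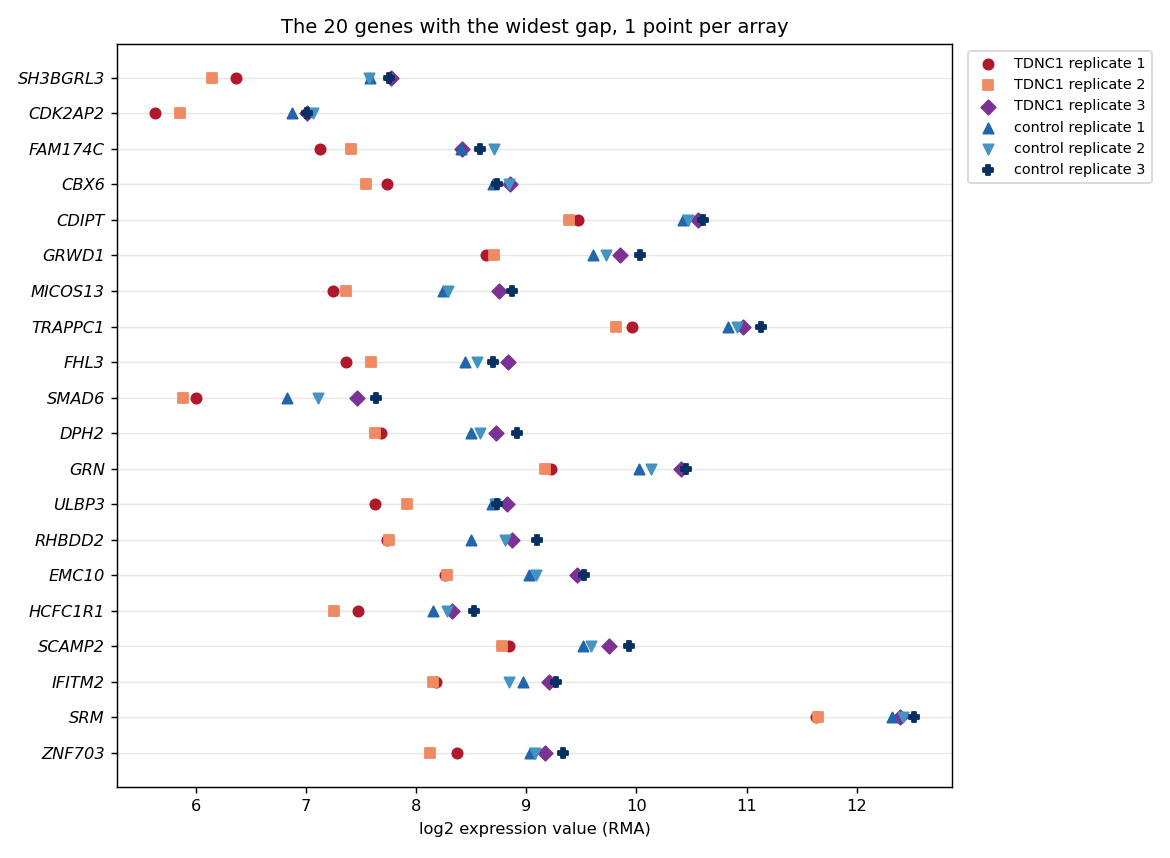
Log2 expression values (horizontal axis) of the 20 genes with the widest gap (vertical axis), 1 point per array. In each of the 20 genes TDNC1 replicates 1 and 2 lie to the left of all other arrays, and TDNC1 replicate 3 lies among or close to the 3 controls.

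Among the next genes by gap, MICOS13, a subunit of the complex that shapes the folds of the inner mitochondrial membrane, stood at 7.24, 7.36 and 8.75 against 8.24, 8.29 and 8.87. Both arrays numbered 3 were above the other controls in it. TRAPPC1, a subunit of a complex that tethers vesicles at the Golgi, had 9.96, 9.82 and 10.97 against 10.83, 10.92 and 11.13. FHL3, a LIM-domain cofactor, had 7.37, 7.59 and 8.83 against 8.45, 8.55 and 8.70, with TDNC1 replicate 3 the highest of the 6 arrays. The inhibitory SMAD gene SMAD6, which limits signalling by bone morphogenetic proteins, had 6.002, 5.89 and 7.46 against 6.83, 7.11 and 7.64. Its controls spanned 0.81, nearly as much as its gap of 0.83.

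DPH2, which acts in making diphthamide on elongation factor 2, stood at 7.68, 7.62 and 8.73 against 8.50, 8.58 and 8.91. The progranulin gene GRN, whose product acts in lysosomes, had 9.22, 9.17 and 10.41 against 10.02, 10.13 and 10.45. ULBP3, a ligand of the natural killer cell receptor NKG2D, had 7.62, 7.92 and 8.82 against 8.69, 8.71 and 8.74. In ULBP3 the controls lay within 0.05 of each other, and TDNC1 replicate 3 was above all of them. The rhomboid-like gene RHBDD2 had 7.74, 7.75 and 8.87 against 8.49, 8.81 and 9.10. EMC10, a subunit of the complex that inserts proteins into the endoplasmic reticulum membrane, had 8.27, 8.28 and 9.46 against 9.02, 9.09 and 9.52.

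HCFC1R1, a regulator of the transcriptional cofactor HCFC1, stood at 7.47, 7.26 and 8.33 against 8.15, 8.28 and 8.52. The secretory carrier protein gene SCAMP2 had 8.84, 8.78 and 9.75 against 9.51, 9.58 and 9.93. IFITM2, a membrane protein that restricts viruses, had 8.18, 8.16 and 9.20 against 8.97, 8.85 and 9.27; its family holds close copies that probes may not separate. SRM, the spermidine synthase of polyamine synthesis, was the brightest of the 146 genes, at 11.63, 11.65 and 12.39 against 12.32, 12.42 and 12.52. The zinc finger gene ZNF703 had 8.37, 8.12 and 9.17 against 9.04, 9.08 and 9.33. In all 5 of these genes the highest array was control replicate 3, and TDNC1 replicate 3 was below it.

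A high control replicate 3 was frequent in the set, whether or not TDNC1 replicate 3 lay below it. Control replicate 3 was the highest control in 104 of the 146 genes (71.2%) and in 42.5% of the measured genes, and control replicate 1 was the lowest in 102 (69.9%, against 36.8%). TDNC1 replicate 3 was nearest to control replicate 3 in 62 genes (42.5%, against 46.6%). These arrays are those the rule read, and the counts are given as a description. In SERTAD1 and FOSL1, singled out after their values were seen, both arrays numbered 3 were above the other 4. SERTAD1, a transcriptional cofactor, stood at 6.99, 7.07 and 8.89 against 7.73, 7.79 and 8.62. FOSL1, an AP-1 subunit, had 6.43, 6.48 and 7.66 against 6.93, 7.28 and 7.72.

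TDNC1 replicate 3 lay farthest above the controls in SLIT2-IT1, an RNA from within an intron of SLIT2, at 5.82, 5.59 and 7.31 against 6.54, 6.41 and 6.45. COX8A, a subunit of cytochrome oxidase, had 10.61, 10.71 and 11.68 against 11.29, 11.19 and 11.27. After SERTAD1 followed the ETS factor gene ETV5, at 5.82, 5.73 and 6.70 against 6.30, 6.49 and 6.44, and PRKCSH, a subunit of glucosidase II, at 10.57, 10.63 and 11.55 against 11.26, 11.26 and 11.37. In these genes TDNC1 replicates 1 and 2 lay below the controls and TDNC1 replicate 3 above them, so the 3 TDNC1 arrays span a wider range than the gap itself.

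**Figure D3:**
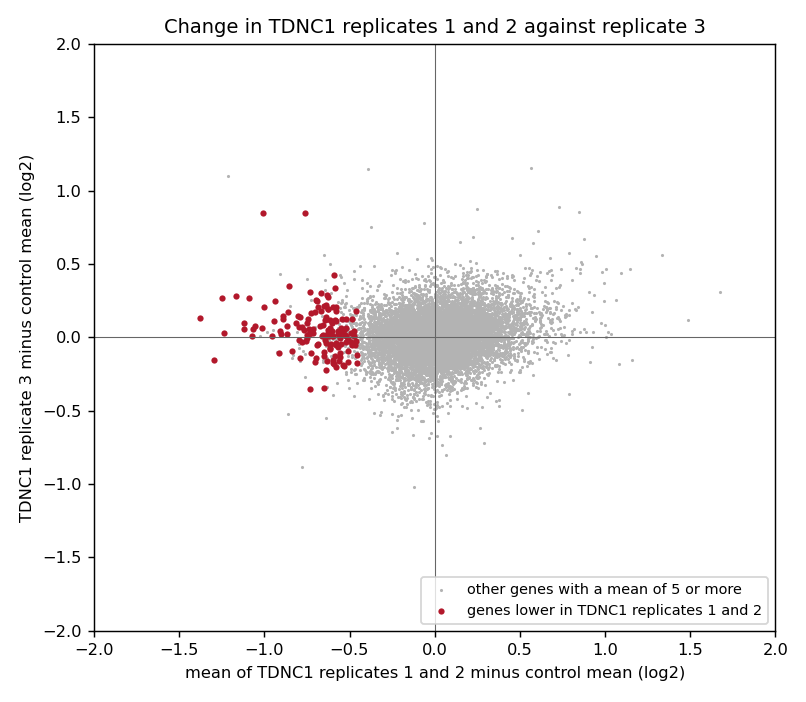
Each point is a measured gene, placed by the mean of TDNC1 replicates 1 and 2 minus the control mean (horizontal axis, log2) and by TDNC1 replicate 3 minus the control mean (vertical axis, log2); the 146 genes are in red and 1 gene lies outside the axes. The 146 genes lie between -1.38 and -0.46 on the horizontal axis and between -0.36 and 0.85 on the vertical axis.

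By what they do, 75 of the 146 genes were sorted into groups from textbook knowledge, after their values were seen, so the groups show the range of functions and support nothing. The groups are not complete, so their sizes are not counts of a function over the set. Of 8 enzymes and proteins of dolichol, glycans and sugars, 3 act on the dolichol carrier. DHDDS, a subunit of the enzyme that makes its long chain, stood at 7.70, 7.71 and 8.29 against 8.19, 8.20 and 8.32. DOLK, the dolichol kinase, had 7.43, 7.29 and 8.26 against 8.04, 7.99 and 8.23. DPAGT1, which places the first sugar on dolichol phosphate, had 6.73, 6.59 and 7.19 against 7.43, 7.32 and 7.33, with TDNC1 replicate 3 just below the controls. The others were PRKCSH, the glucose-binding lectin gene MLEC, the sulfotransferase gene CHST12, the sugar kinase gene NAGK and the sialidase gene NEU1. The changes of the 8 genes in TDNC1 replicates 1 and 2 against the control mean ran from -0.82 to -0.53, and those in replicate 3 from -0.17 to 0.25.

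The list of N-glycosylation genes places DPAGT1 beside a part of its pathway. It does not hold DHDDS, DOLK or PRKCSH, which are also among the 146, so its count does not cover the whole pathway. Of the 17 measured genes on the list, 1 was among the 146. In either direction limma called 0 of the 17, where it called 0.00187% of all rows. TDNC1 replicates 1 and 2 were both below all controls in 6 of the 17 and both above in 3, where 21.4% of the measured genes were below and 27.1% above. The median change of the list in these arrays was -0.08, against 0.01 over the measured genes. MPDU1, which helps in the use of dolichol-linked sugars, had -0.49 and GMPPB, which makes GDP-mannose, -0.52, with gaps of 0.15 and 0.28. The oligosaccharyltransferase subunit genes RPN1 and RPN2 had 0.15 and 0.07.

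Proteins of the endoplasmic reticulum included EMC10, NCLN, TMEM214, SRPRA, CNPY3 and CRELD2, with changes from -0.94 to -0.47 in TDNC1 replicates 1 and 2. SRPRA, a subunit of the receptor for the signal recognition particle, stood at 9.98, 10.01 and 10.48 against 10.43, 10.45 and 10.54. It was the 1 gene of 19 measured in protein translocation and signal peptidase activity that met the rule. In that list both arrays were below all controls in 10 genes and above them in 5, with a median change of -0.07, beside 21.4% below and 27.1% above over the measured genes. SEC61A1, of the translocation channel, had -0.29, and the channel partner SEC63 had 0.35 in the other direction.

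Golgi and vesicle genes were TRAPPC1, SCAMP2, COG7, VPS52 and VPS25, with changes from -1.07 to -0.47. COG7, of a tethering complex inside the Golgi, stood at 8.71, 8.68 and 9.51 against 9.38, 9.36 and 9.64. VPS52, of a complex that returns endosomes to the Golgi, had 9.15, 9.17 and 9.89 against 9.83, 9.93 and 9.99. VPS25, of the ESCRT machinery, had 9.96, 10.01 and 10.50 against 10.43, 10.49 and 10.44. These VPS genes were the 2 members among 98 measured genes of endosome and vacuolar sorting (2.04%, where 1.32% of the measured genes are in the set), whose median change was 0.03. In 23 measured coat and cargo genes of COPI, COPII and TMED transport, 0 met the rule.

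Lysosomal and vacuolar genes beside GRN were NEU1, the lysosomal membrane protein gene GLMP, the transporter gene SPNS1 and VAC14, a scaffold of phosphoinositide synthesis. Their changes, GRN included, ran from -1.004 to -0.58. SPNS1 stood at 8.30, 8.20 and 9.11 against 8.76, 8.90 and 9.05, with TDNC1 replicate 3 above all controls. Among genes of growth signalling, AKT1S1, a TOR complex inhibitor, had 7.25, 7.15 and 8.05 against 7.86, 8.07 and 8.01. TSC2, which restrains TOR from upstream, had 7.65, 7.64 and 8.08 against 8.06, 8.15 and 8.10. STRADA, the pseudokinase partner of LKB1, had 8.20, 8.25 and 8.64 against 8.75, 8.99 and 8.85, and the RAF kinase gene ARAF 8.25, 8.35 and 8.91 against 8.76, 8.94 and 9.01. ARAF was the 1 member among 43 measured genes of the MAP kinase list.

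Lipid enzymes were CDIPT and PEMT, which makes phosphatidylcholine by methylation and stood at 6.80, 6.79 and 7.35 against 7.37, 7.52 and 7.58. They were the 2 members among 22 measured genes of phospholipid synthesis. Of the 22, 0 were called, where 0.00187% of all rows were called. Both arrays were below all controls in 6 of them and above in 5 (measured genes 21.4% and 27.1%), and the median change was -0.03. CDS2, which makes the CDP-diacylglycerol that CDIPT uses, had 0.15 and CDS1 0.20. LPCAT3, a lysophospholipid acyltransferase, had -0.32.

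For CBX6 the Polycomb list gave 1 member among 22 measured genes, with 0 called, where 0.00187% of all rows were called. Its median change in TDNC1 replicates 1 and 2 was 0.14, opposite in sign to CBX6, and both arrays were above all controls in 10 genes and below in 4, against 27.1% and 21.4% of the measured genes. The catalytic subunit gene EZH2 had 0.19, the histone-binding RBBP7 0.36 and PCGF2, a ring finger subunit, -0.34. The relatives of SH3BGRL3 also had positive values, with 0.58 for SH3BGR, 0.30 for SH3BGRL and 0.13 for SH3BGRL2. CDK2AP1 had -0.18, with a gap of 0.14, on the same side as CDK2AP2.

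The group of mitochondrial proteins held 7 genes, not all such genes of the set, with changes from -1.16 to -0.55. ROMO1, a regulator of reactive oxygen at the inner membrane, stood at 7.03, 6.97 and 7.65 against 7.83, 7.98 and 7.55. Its lowest control was replicate 3, which TDNC1 replicate 3 just exceeded. IDH3G, of isocitrate dehydrogenase, had 10.13, 10.25 and 10.94 against 10.79, 10.90 and 10.89, and PC, pyruvate carboxylase, 5.79, 5.96 and 6.73 against 6.37, 6.46 and 6.70. COX8A was the 1 member among 56 measured genes of respiratory and import complexes other than complex I, and 0 of 77 mitochondrial ribosomal protein genes met the rule.

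Genes of ribosome assembly, RNA processing and RNA modification were GRWD1, NOL6, CCDC86, GNL3L, METTL1, RPP21, SRSF6 and WDR77, with changes from -1.12 to -0.55. NOL6, a nucleolar protein, stood at 7.70, 7.57 and 8.39 against 8.13, 8.17 and 8.33. METTL1, which methylates transfer RNA, had 7.32, 7.34 and 8.15 against 7.87, 7.90 and 8.10. SRSF6, a splicing factor, had 9.38, 9.41 and 10.28 against 10.03, 9.97 and 10.22. In each of these 3 genes TDNC1 replicate 3 was the highest array. SRSF6 was 1 of 117 measured genes in the splicing and RNA-binding list. RPS26 was the 1 member of 72 ribosomal protein genes, at 6.89, 7.50 and 8.01 against 8.12, 8.03 and 8.19. Many processed copies resemble RPS26, and its low arrays differ by 0.60 from each other, the widest difference of the set.

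The group of transcription factors and cofactors held 13 genes, not all such genes of the set. Their changes ran from -1.25 to -0.51 in TDNC1 replicates 1 and 2 and from -0.18 to 0.85 in replicate 3. The homeobox genes DLX5 and DLX2 stood at 6.74, 6.75 and 7.61 against 7.33, 7.45 and 7.68, and at 7.82, 7.83 and 8.87 against 8.36, 8.52 and 8.80. ZIC2, a zinc finger factor of early brain patterning, had 7.86, 7.88 and 8.48 against 8.39, 8.34 and 8.67. MEN1, the menin gene, had 8.37, 8.45 and 9.22 against 8.91, 9.02 and 9.16. Forkhead genes gave FOXD3, at 5.58, 5.55 and 5.91 against 6.01, 6.09 and 6.12, and FOXD4, at 7.86, 8.21 and 8.81 against 8.92, 8.92 and 8.65. They were 2 of 67 measured SOX, FOX and GATA genes, and FOXD4 has near-identical copies. Of 508 measured genes on the C2H2 zinc finger list 3 met the rule (0.591%, against 1.32% of the measured genes), ZNF703, ZNF580 and ZNF653. The list was drawn by symbol or symbol stem and does not hold ZIC2, so its share does not cover all zinc finger genes.

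Cell death regulators were BAK1, BCL2L11, DEDD, FAIM and MUL1, with changes from -0.65 to -0.48. BAK1, which opens the outer mitochondrial membrane, stood at 7.79, 7.75 and 8.29 against 8.33, 8.52 and 8.40, with TDNC1 replicate 3 just below the controls. BCL2L11, the gene of BIM, had 6.62, 6.64 and 7.16 against 7.10, 7.16 and 7.11. The repair genes RAD9A, XRCC1 and APEX1 had changes from -0.79 to -0.49. APEX1, the main abasic endonuclease, stood at 10.46, 10.44 and 10.91 against 10.88, 10.88 and 11.07. Genes of chromatin and the nuclear envelope beside CBX6 were ASF1A, CHRAC1, BANF1, NRM and CHAMP1. BANF1, which bridges DNA at the envelope, had 7.37, 7.32 and 7.91 against 7.92, 7.95 and 8.01. SAMHD1, which degrades deoxynucleotides, had 9.38, 9.34 and 9.86 against 9.91, 9.88 and 9.81.

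The 3 genes bearing only a TMEM name were TMEM109, TMEM214 and TMEM248, of 187 measured (1.60%, against 1.32%). The 6 long noncoding RNAs were SLIT2-IT1, MGC2889, LINC01061, SNHG17, LINC01000 and LINC01004, and 3 of them are among 159 measured LINC genes (1.89%, against 1.32%). LINC01061 stood at 9.97, 9.95 and 10.42 against 10.54, 10.69 and 10.41. Its other rows and those of LINC01000 may measure shared copies.

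At the edge of the rule, RNF25 (gap 0.402), FBRS and URM1 were just inside, while the transcription factor gene GATA6 (gap 0.399), TIMM22 and the phosphatase gene DUSP1 were just outside. On the bound for TDNC1 replicate 3, DDX11L9 lay 0.19 below the lowest control, ANKRD1 0.18 and FAIM 0.16, and the nearest genes left out were PVRIG, ARMC7 and RIPPLY1, at 0.23, 0.24 and 0.36 below. A gap of 0.4 or more was found in 172 measured genes (1.55%), which include the genes of the families left out.

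Of the 146 genes, 16 had more than 1 row. Their 31 other rows come from the same arrays, and several hold identical values. TDNC1 replicates 1 and 2 were below all controls in 25 of the 31, with a gap of 0.4 or more in 20. Many of the 31 belong to F8A1, IFITM4P and LINC01061, which have 6, 6 and 7 rows, so the counts do not spread evenly over the 16 genes. They also read only the gap. In a row of THEM6 and a row of LINC01061, TDNC1 replicate 3 was 0.26 and 0.42 below the lowest control, beyond the bound of 0.2. F8A1, which has near-identical copies on the X chromosome, had 5 other rows with gaps of 0.61 and 0.72. Rows that did not follow the brightest one included those of CBX6, CNN2, TMEM109, MLEC and NGB and a row of LINC01000. The other row of the calponin gene CNN2 stood at 6.15, 6.43 and 6.41 against 6.35, 6.34 and 6.40, where the brightest had 9.34, 9.19 and 10.28 against 9.97, 10.07 and 10.43.

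The rule did not use gene structure, and the set stood out from the measured genes in gene span, the distance from start to end of the RefSeq gene in GRCh38.p14. The median span was 9139 bases for the 136 protein-coding genes and 27633 for the 9736 measured protein-coding genes. For the 168 protein-coding genes of the mirrored rule, higher in TDNC1 replicates 1 and 2 only, it was 53694. With the genes in 5 equal bins by span, 2.87% of the shortest bin, up to 8324 bases, were in the set, and 0.360% of the longest. The mirrored genes ran the other way, from 0.565% to 2.67%.

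The slope with span held over all protein-coding genes in the same arrays. The median difference from the control mean went from -0.05 in the shortest bin to 0.12 in the longest in TDNC1 replicate 1, and from -0.04 to 0.08 in replicate 2. In TDNC1 replicate 3 it was 0.01 in both. Across the 9736 genes, which share the same 6 arrays, Spearman's rho with span was 0.27 for the change in TDNC1 replicates 1 and 2 and -0.01 for replicate 3. The part of this slope in the low values of the 146 genes was not tested.

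**Figure D4:**
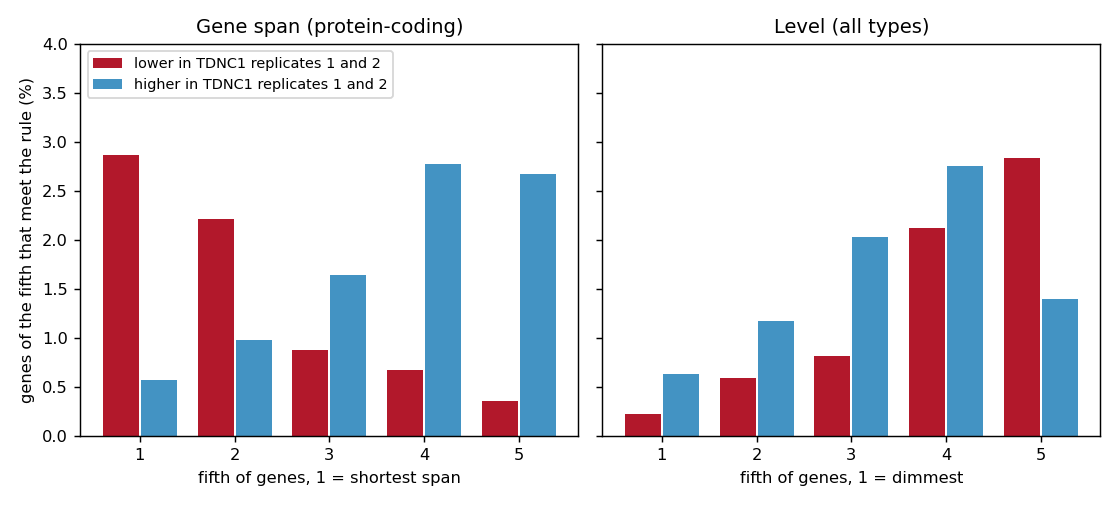
Share of genes (vertical axis, %) that meet the rule (red) or the mirrored rule (blue), in 5 equal bins of the measured genes by gene span (left, protein-coding genes) and by mean level (right, all types). By span the red bars go from 2.87% to 0.360% and the blue bars from 0.565% to 2.67%; by level the red bars go from 0.225% to 2.84%.

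The set was also brighter, with a median level of 8.26 against 6.996 over the measured genes, and 2.84% of the brightest of 5 equal bins were in it against 0.225% of the dimmest. The part of level in meeting a fixed gap was not tested. By chromosome, 25 of the 146 (17.1%) were on chromosome 19, which holds 8.11% of the measured genes. Chromosome 11 had 15 (10.3%, against 5.70%), chromosome 6 had 12 (8.22%, against 5.02%) and chromosome 16 had 11 (7.53%, against 4.74%). Chromosomes 5 and 18 had 0 of 472 and 163 measured genes. Pairs of members that are neighbours among the measured genes numbered 2, TEX261 with NAGK and PRKCSH with ZNF653.

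Promoters of 118 of the 136 protein-coding genes, and of 7978 of the 9736 measured ones, were matched in RefSeq's table. For the mirrored genes under 80% were matched (134 of 168), and their promoters are not compared here. Median GC content was 64.8% in the set and 65.3% over the measured genes. The ETS motif was in 36 of the 118 promoters (30.5%), in 17.7% of the measured ones and in 10.7% of all promoters of the table. Genes that hold it include CDK2AP2, GRWD1, TRAPPC1, DPH2 and SCAMP2. The E-box CACGTG was in 20 promoters (16.9%, against 9.96% and 7.43%), among them those of CBX6, DPH2, SRM, DOLK, DHDDS and NEU1. The YY1 motif was in 6 (5.08%, against 1.89% and 0.916%) and the CCAAT box in 56 (47.5%, against 36.2% and 35.7%). The promoters compared were not matched for level or gene span, in which the set differs from the measured genes. The part of level and span in the motif shares was not tested.

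The GC box was in 84 (71.2%), near the 69.3% of the measured promoters, and in 44.6% of all. TATAAA was in 3 (2.54%, against 5.80% and 12%), the cyclic AMP element TGACGTCA in 6 (5.08%, against 3.08% and 1.98%) and the NRF1 motif in 4 (3.39%, against 2.28% and 1.36%). The AP-1 motif TGAGTCA was in 0 (against 3.02% and 4.92%). With any listed start counted instead of the first, the ETS motif was in 32.2%, 20.3% and 12.2%. Matches on either strand are counted once per promoter and may overlap. A match describes the letters in this window and shows no binding.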

How the data were processed

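Gene expression was measured on 6 arrays, 3 of TDNC1 and 3 of control cells. The deposited log2 values are RMA values of the authors; the submitters' processing notes name Affymetrix Power Tools, with neither version nor annotation. RMA quantile-normalizes probes before summarizing rows, so a shift shared by most genes can be removed; the row medians ran from 5.16 to 5.22. Arrays have no read depth; their number limits the precision.

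Rows (16098 of 53617) were named through the platform annotation and entrez identifiers; symbols, spans and promoters come from RefSeq tables (GRCh38.p14). The rule was applied to the row of highest mean per symbol. limma 3.58.1 in R 4.3.3 (lmFit, eBayes, two-sided, no covariate, Benjamini-Hochberg over all rows, threshold 0.05) compared TDNC1 with control; the step was tested on simulated data. The members and lists were chosen with earlier results of these data known. Genes named are the 20 with the widest gap, those at the edges of the rule, the 5 with TDNC1 replicate 3 farthest above the controls, and up to 4 members of each list that holds 2 or more; others, including those in the groups by function, were chosen after their values were seen. Promoter motifs were short fixed strings. Symbols that matched a list's stem but belong to another family, such as COPS7A, were taken out of it.

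The alternatives were leaving out each array, a replicate block, array weights, trend and robust settings, a filter on dim rows, other scalings and other thresholds of the rule.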

Additional observations from a re-analysis of the deposited data

How the results depend on the processing

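The number of genes that met the rule was 264 with a gap of 0.3 and 65 with a gap of 0.5, against 146. With single arrays left out it ran from 149 without TDNC1 replicate 3, the 146 among them, to 234 without TDNC1 replicate 1. In that last setting 1 array decides the low side. Other thresholds, scalings and row choices gave between 136 and 168. The number of rows called by limma ran from 1 to 23 with single arrays left out. It was 23 without TDNC1 replicate 3 and 2 without control replicate 3, and 1 under the other alternatives. Of the 146 genes 0 were called under any of the 12 alternatives; at an unadjusted p under 0.05 the number ran from 9 without TDNC1 replicate 2 to 146 without TDNC1 replicate 3 (46 with all arrays). Over all rows the share at that level, in either direction, was 5.02%, 14.5% and 7.70% in these settings. The median log2 change of the 146 genes stayed below 0, from -0.64 without TDNC1 replicate 3 to -0.32 without TDNC1 replicate 1 or replicate 2, with array weights at -0.52. The sign of a single gene turned in 1 case, SLIT2-IT1, which ran from -0.76 without TDNC1 replicate 3 to 0.10 without TDNC1 replicate 2; the cause was not tested. With the replicate number as a replicate block, 1 row and 0 of the 146 genes were called, and 92 had an unadjusted p under 0.05, beside 7.66% of all rows. Deviations from the group means over all rows correlated at 0.04, -0.001 and 0.05 between arrays of the same number. Between arrays of unlike numbers the correlations ran from -0.07 to 0.05. Taken over all rows, many of them dim, such values cannot decide whether the numbers pair the samples. With 3 arrays per group, the absence of the low values from TDNC1 replicate 3 rests on 1 array, and no further sample tests it.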

Other observations

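Among the rows without a gene name here, 16722 had a mean of 5 or more, and 294 of these met the rule. The mirrored rule was met by 223 of them.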
